A study of Caenorhabditis elegans with 6 samples.

Results

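The genes of programmed cell death and of the engulfment of dying cells were followed in Caenorhabditis elegans that had lived in space, against worms kept on the ground. The set holds 10 genes, chosen by name: the death pathway genes egl-1, ced-13, ced-9, ced-4 and ced-3, and the engulfment genes ced-1, ced-6, ced-7, ced-10 and ced-12. All 10 were found on the array, on 17 of 22548 tested probe sets, and the array named 17118 genes in all. The flown samples are RNA of wild-type worms of the laboratory strain CC1, grown in the liquid medium CeMM aboard the International Space Station as cultures of mixed stages. A device moved them into fresh medium about every 1 month, over up to 10 generations, and the labels name both space radiation and microgravity as exposures. The ground samples are RNA of the same strain in the same medium, passaged on the same schedule. Each group has 3 Affymetrix arrays, labelled as technical replicates, and the sources used here do not give how many cultures or RNA extracts lie behind them. All p-values thus reflect array-to-array spread, possibly technical alone, and the number of arrays limits the precision.

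In the worm, a cell is committed to die when the BH3-only protein EGL-1 binds CED-9, a Bcl-2 homologue on mitochondria. This frees CED-4, the Apaf-1 homologue, to activate the caspase CED-3. CED-13 is another BH3-only protein, and the p53 homologue CEP-1 induces egl-1 and ced-13 in the germline after DNA damage. Neighbouring cells then engulf the corpse through parallel routes: CED-1, CED-6 and CED-7 recognise it and signal, while CED-2, CED-5 and CED-12 activate the Rac GTPase CED-10. Most of these deaths occur in the embryo and, in adult hermaphrodites, among germ cells in the gonad, where the sheath cells do the engulfing.

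None of the 10 genes passed the test. A call needed an adjusted p under 0.05, from limma on log2(intensity + 16) with Benjamini-Hochberg adjustment over all 22548 probe sets, and a difference of at least 2-fold. By that rule 0 of the 10 genes and 0 of the 17 probe sets were called, where 7.76% of all genes and 7.31% of all probe sets were. At an unadjusted p under 0.05 limma marked 3 of the 10 genes, with ced-3 higher and egl-1 and ced-1 lower on the space arrays, against 25.6% of all genes. The same 3 genes were the ones whose brightest probe set did not overlap between the groups, and 31.4% of all genes did not overlap. Of the 10 log2 differences (space minus ground, brightest probe sets) 3 were above 0 and 7 below, with a median of -0.31, beside a median of -0.02 over all genes. For 6 of the 10 genes the 95% interval of the brightest probe set lay within 2-fold in either direction, as it did for 9 of the 17 probe sets. That of the brightest probe set reached past 2-fold for ced-3, ced-13, ced-1 and ced-7. Intervals of dimmer probe sets of ced-1 (down to -1.03), ced-6 (up to 1.44) and ced-10 (up to 1.24 and 1.70) reached past it too.

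Array medians overlapped, at 112 to 119.3 in the space group, against 103 to 128 in the ground group. The log2 5'/3' ratio of the actin control, a sign of RNA or labelling quality, was -3.12 ± 0.164 in the space group, against -3.97 ± 0.358 in the ground group (SD over 3 arrays). That of the Gapdh control overlapped between the groups, at -2.06 to -0.94 on the space arrays, against -3.65 to -0.87 on the ground arrays. The 5'/3' covariate used below is the mean of the actin and Gapdh log2 ratios of each array. Of 24 probe sets for poly-A control transcripts, which are spiked in before labelling, 22 were lower on every space array than on every ground array, by 0.96 log2 units in the mean over all 24. The labels do not say how much of these transcripts was added. The part of the 5'/3' or poly-A controls in the members' values was not tested beyond the 5'/3' covariate. Background was gauged from 8 controls for yeast and other absent sequences, which read 0.562 to 86.7, with a median of 6.48. A value within this range may thus be signal or background.

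**Figure D1:**
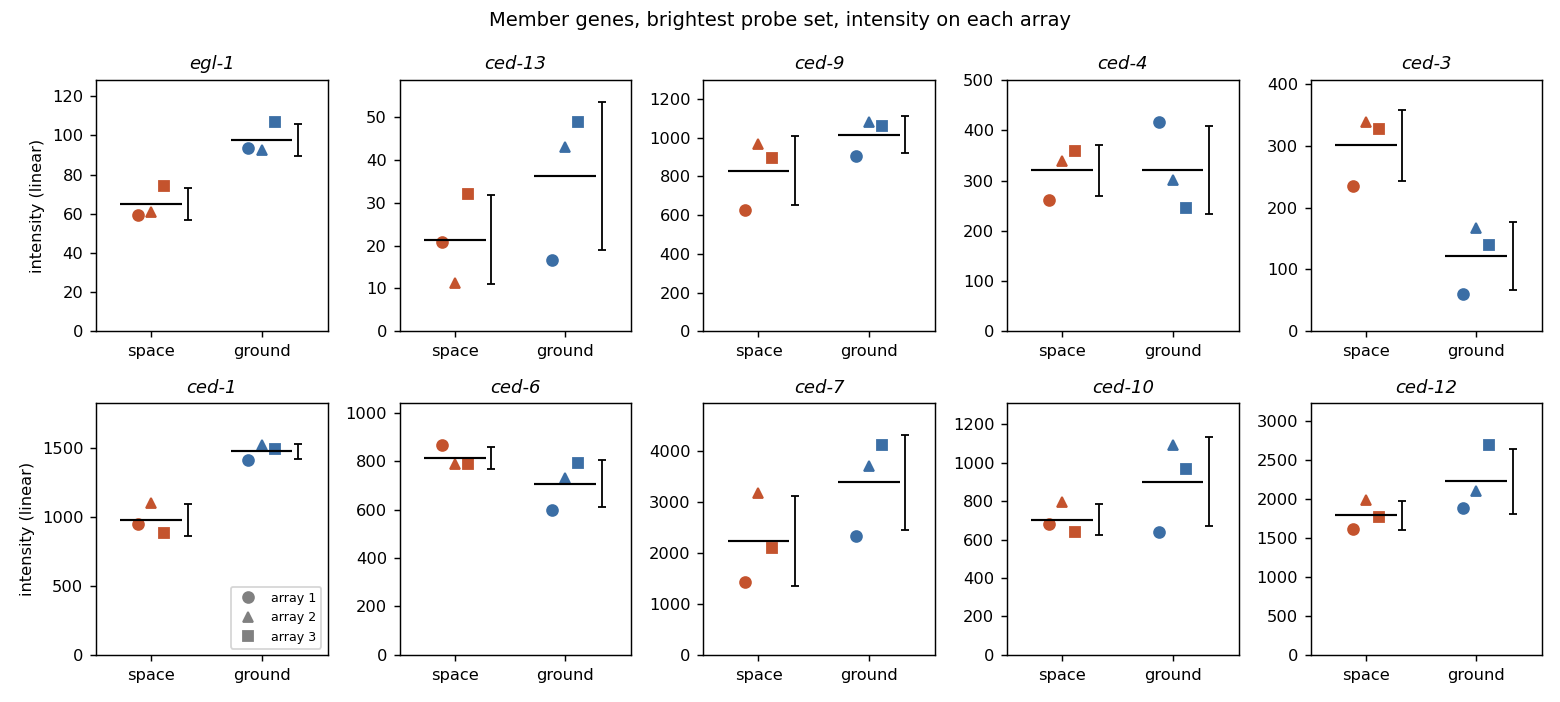
Intensity (linear scale from 0) of the brightest probe set of each of the 10 genes on the 3 space arrays (left, orange) and the 3 ground arrays (right, blue); the marker shape gives the array number, the horizontal line the group mean and the bar beside it the SD. The groups do not overlap for egl-1 and ced-1, both lower on the space arrays, and for ced-3, higher there.

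The caspase gene ced-3, the executioner at the end of the death pathway, had the largest difference of the 10. Its brightest probe set (174274_at) read 235, 340 and 328 on the space arrays, against 61.1, 167 and 139 on the ground arrays. Every space array was above every ground array, and ground control 1 was the lowest of the 6. It averaged 301 ± 57.2 in the space group, against 122 ± 54.7 in the ground group (SD, n = 3 each). The log2 difference was 1.27 ± 0.35 (SE), or 2.42-fold, with a 95% interval of 0.47 to 2.08. It was larger in size than that of 94.8% of all genes, yet its limma adjusted p of 0.0617 missed the threshold. Without ground control 1 the difference came to 0.90, under 2-fold (limma adjusted p = 0.0989). The call turned on the settings. ced-3 passed after median centring (1.23, adjusted p = 0.0461 by limma), with a pseudocount of 64 (1.01, adjusted p = 0.0356), without dim probe sets (1.27, adjusted p = 0.022) and with an intensity trend and a robust prior together in limma's variance (1.27, adjusted p = 0.027). It did not pass after quantile normalization (1.12, adjusted p = 0.0752) or with a pseudocount of 1 (1.40, adjusted p = 0.118). The dimmer ced-3 probe set (194137_at) read 2.58, 10.96 and 5.57 on the space arrays, against 2.64, 6.04 and 4.77 on the ground arrays. All 6 of these values lay within the range of the absent-sequence controls, so ced-3 was in effect read by its brightest probe set alone.

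**Figure D2:**
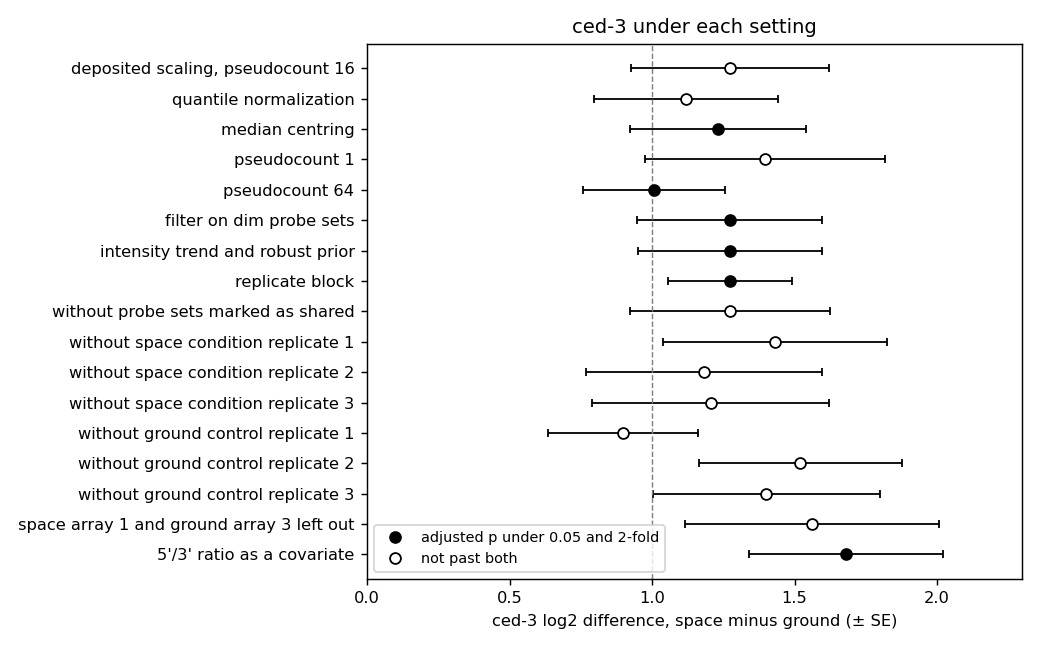
Log2 difference of ced-3 (space minus ground, brightest probe set) with its SE under each processing setting; filled points passed an adjusted p under 0.05 and 2-fold, and the dashed line marks 2-fold. The difference was above 0 in every setting shown, from 0.90 without ground control 1 to 1.68 when the 5'/3' control ratio entered the fit, and 6 of the 16 alternatives passed.

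The BH3-only activator genes lie at the other end of the pathway, and neither was higher on the space arrays. egl-1 (175845_at) read 59.2, 61.0 and 74.3 on the space arrays, against 93.5, 92.3 and 107 on the ground arrays. The groups did not overlap, and the space values lay within the range of absent sequences while the ground values lay just above it. Its log2 difference was -0.49 ± 0.20 (95% interval -0.96 to -0.03, adjusted p = 0.174, limma). For a gene this dim the pseudocount shrinks the difference, which was -0.59 with a pseudocount of 1 and -0.33 with 64. ced-13 (188266_at) read 20.8, 11.3 and 32.1 on the space arrays, against 16.6, 43.1 and 48.9 on the ground arrays. These groups overlapped, and all 6 values were within the range of absent sequences. Its difference of -0.46 ± 0.33 had an interval of -1.23 to 0.32 and an adjusted p of 0.461 in limma, so a 2-fold lower level and no difference at all both lay within it. With 1 array left out it spanned -0.77 (without ground control 1) to -0.25 (without space condition 2).

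The middle of the pathway showed smaller differences. The death inhibitor gene ced-9 (174916_at) read 627, 970 and 895 on the space arrays, against 906, 1083 and 1061 on the ground arrays. The groups overlapped, with space condition 1 well below the other arrays. The log2 difference was -0.31 ± 0.24 (95% interval -0.85 to 0.24, adjusted p = 0.489, limma), and -0.12 without space condition 1. A dimmer ced-9 probe set had the same sign, at -0.19 ± 0.21. The caspase activator gene ced-4 (188557_at) read 262, 340 and 359 on the space arrays, against 417, 301 and 245 on the ground arrays. Its groups overlapped fully, with means of 320 ± 51.6 for space, against 321 ± 87.8 for ground (SD, n = 3 each). The log2 difference was 0.02 ± 0.26 (adjusted p = 0.98, limma), with an interval of -0.58 to 0.61. Its sign had no stability and turned in 8 of 16 alternatives, among them quantile normalization (-0.16) and median centring (-0.03).

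Among the engulfment genes, ced-1 was the only 1 whose brightest probe set did not overlap between the groups, and it was not called. It encodes the corpse receptor, a transmembrane protein on the engulfing cell. Its brightest probe set (173720_at) read 948, 1106 and 885 on the space arrays, against 1417, 1521 and 1494 on the ground arrays. The groups lay apart, with SDs of 114 for space, against 53.9 for ground. The log2 difference was -0.59 ± 0.20, or 1.51-fold lower, with an interval of -1.05 to -0.13 (adjusted p = 0.112, limma). Its size was larger than that of 70.8% of all genes. In 1 of 16 alternatives, the pseudocount of 64, the adjusted p fell under 0.05 (-0.57, adjusted p = 0.0344, limma), still short of 2-fold. The other ced-1 probe set, whose name marks probes shared with other sequences, read 714, 470 and 392 on the space arrays, against 722, 788 and 409 on the ground arrays. There the groups overlapped, at -0.27 ± 0.33, and the value spanned -0.55 (without ground control 3) to -0.09 (without space condition 3).

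The genes acting with ced-1 did not pass. ced-7, which encodes an ABC transporter needed for corpse recognition, was read by 2 probe sets, both marked as shared. The brightest (175793_s_at) read 1427, 3175 and 2101 on the space arrays, against 2344, 3713 and 4117 on the ground arrays. The spread within each group was wide and the groups overlapped, at a log2 difference of -0.63 ± 0.35 (adjusted p = 0.316, limma). With 1 array left out it spanned -0.92 (without space condition 2) to -0.35 (without space condition 1), and it was -0.18 with the 5'/3' covariate. The other ced-7 probe set was tighter, with 1756, 1625 and 1574 on the space arrays, against 2103, 2330 and 2068 on the ground arrays. Here the groups did not overlap, at -0.39 ± 0.19 (interval -0.83 to 0.06, adjusted p = 0.265, limma). ced-6, which encodes the adaptor protein that binds the tail of CED-1, read 865, 786 and 790 on the space arrays, against 599, 732 and 791 on the ground arrays (175802_at). The groups overlapped at their edge, and the difference was 0.21 ± 0.21 (adjusted p = 0.605, limma). A dimmer ced-6 probe set, marked as shared, read 456, 293 and 280 on the space arrays, against 245, 249 and 128 on the ground arrays. It did not overlap, at 0.71 ± 0.32 (adjusted p = 0.218, limma).

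In the Rac branch, ced-12 encodes the ELMO homologue that helps activate CED-10. Its probe set (174072_at) read 1611, 1983 and 1768 on the space arrays, against 1887, 2097 and 2683 on the ground arrays. The groups overlapped, and the log2 difference was -0.30 ± 0.22 (interval -0.82 to 0.21, adjusted p = 0.466, limma). It came to -0.16 without ground control 3 and -0.07 with the 5'/3' covariate. The Rac gene ced-10 was read by 3 probe sets that did not have the same sign. The brightest (173435_s_at) read 680, 794 and 640 on the space arrays, against 642, 1091 and 970 on the ground arrays, at -0.32 ± 0.25 (adjusted p = 0.503, limma), with -0.54 without ground control 1 and -0.17 without ground control 2. A dimmer ced-10 probe set (172721_x_at) read 584, 405 and 318 on the space arrays, against 321, 221 and 287 on the ground arrays, at 0.60 ± 0.28. The third (188142_s_at) read 685, 289 and 246 on the space arrays, against 307, 183 and 165 on the ground arrays, at 0.76 ± 0.41. In each of the 3 the groups overlapped, and all 3 are marked as shared, so that signal from related sequences cannot be told from ced-10 and no direction is given for it.

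**Figure D3:**
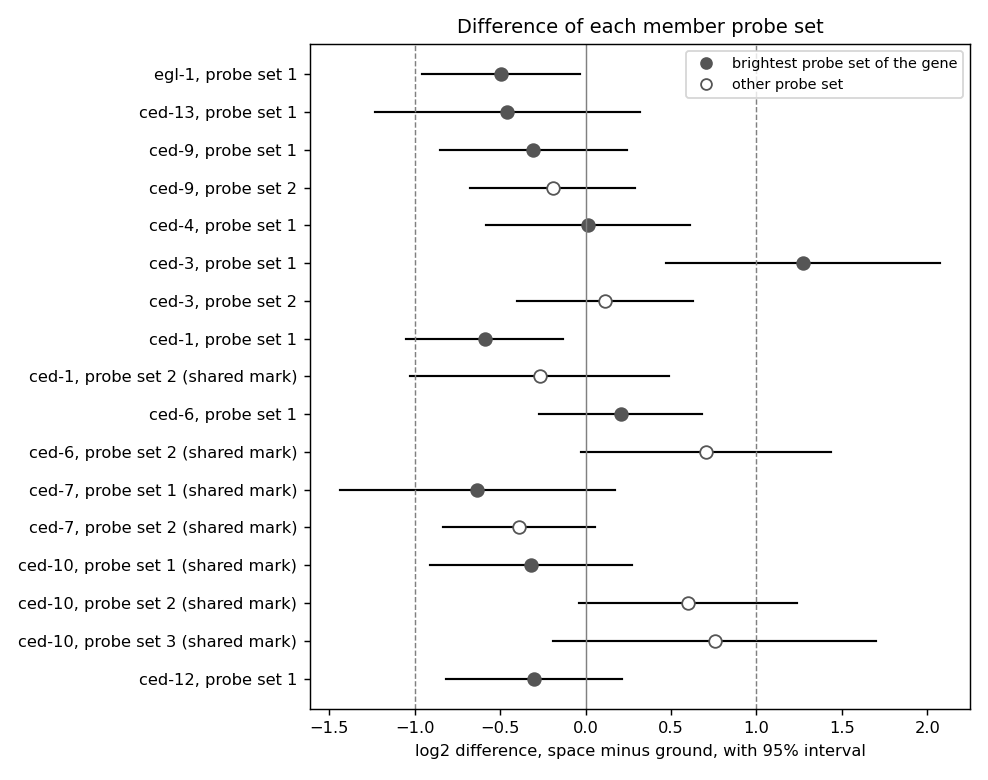
Log2 difference (space minus ground) of the 17 probe sets of the 10 genes, with 95% intervals from limma; filled points are the brightest probe set of a gene, open points its other probe sets, and dashed lines mark 2-fold in either direction. The intervals of egl-1, ced-3 and ced-1 (brightest probe sets) exclude 0, and the ced-10 probe sets lie on opposite sides of it.

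The order of the arrays within a group differed among the member probe sets. Of the 7 member probe sets marked as shared, space condition 1 was the highest space array on 5, and space condition 3 the lowest on 6. Of the 10 without the mark, space condition 1 was the highest on 2 and the lowest on 6. Over all probe sets, space condition 1 was the highest space array on 32.2% and the lowest on 44.7%. The 3 marked probe sets with a difference above 0, those of ced-6 and ced-10, each had their largest value on space condition 1. With 1 array left out, the dimmer ced-6 probe set spanned 0.42 (without ground control 3) to 0.86 (without ground control 2). The third ced-10 probe set spanned 0.32 (without space condition 1) to 1.03 (without space condition 3).

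The other genes of the pathway were described from 4 lists, holding 83 genes, of which 81 were measured. Of these, 4 rose and 3 fell by the same limma rule, where 5.34% of all genes rose and 2.42% fell. After quantile normalization the split was 1 higher and 6 lower, and after median centring 4 higher and 5 lower. With the 5'/3' covariate it was 2 higher and 5 lower. The median log2 difference of the 81 genes was -0.24. Among 17 regulators of death, 2 rose and 0 fell, with 1 lower at an unadjusted p under 0.05 in limma. With every probe set counted 1 fell, since a dimmer probe set of the sex determination gene tra-1 was called lower (-1.24 ± 0.28, adjusted p = 0.0332, limma, named after its value was seen), while its brightest stood at 0.23. The riser cep-1, the p53 homologue gene, read 582, 690 and 702 on the space arrays, against 201, 192 and 369 on the ground arrays, for a log2 difference of 1.38 ± 0.28 (adjusted p = 0.026, limma). The other was gld-1, a germline translational repressor gene, at 1.18 ± 0.21 (adjusted p = 0.0165). A dimmer gld-1 probe set stood at -0.08, and a dimmer cep-1 probe set, at -0.02, had group means within the range of absent sequences. After quantile normalization neither was called, with cep-1 at 1.21 (adjusted p = 0.0539, limma) and gld-1 at 0.9994, just short of 2-fold. The CEP-1 targets egl-1 and ced-13 were not called. The values of ced-13 on all arrays and of egl-1 on the space arrays lay below the highest absent-sequence control but above the median of these controls. Whether they were signal or background was not tested. The neuronal death regulator genes ces-1 and ces-2 stood at -0.43 ± 0.36 and -0.01 ± 0.35, with group means within the range of absent sequences, and icd-1, the brightest of the list, at -0.28 ± 0.32.

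Of 21 genes near the caspase and in the breakdown of the cell, 1 rose and 0 fell (limma, with 1 lower at an unadjusted p under 0.05). It was crn-1, a nuclease gene of apoptotic DNA breakdown, which read 565, 613 and 598 on the space arrays, against 278, 258 and 201 on the ground arrays. Its log2 difference was 1.23 ± 0.21 (adjusted p = 0.0142, limma), and it was also called after quantile normalization. The caspase-related gene csp-1 stood at -0.71 ± 0.47, with group means within the range of absent sequences. The nuclease genes nuc-1 and cps-6 stood at 0.10 ± 0.21 and -0.24 ± 0.25, and ced-8, whose product helps expose phosphatidylserine on dying cells, at -0.03 ± 0.50, its group means too within the range of absent sequences.

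Of 20 partners in engulfment, 2 fell and 0 rose, with a list median of -0.33. At an unadjusted p under 0.05 in limma 7 were lower and 1 higher, where 1792 of all 17118 genes were lower and 2588 higher. The genes sdn-1 (-0.99 ± 0.23, adjusted p = 0.0407, limma) and abl-1 (-0.89 ± 0.21, adjusted p = 0.0379) passed on adjusted p but fell short of 2-fold. Both were named after their values were seen. The Rac gene mig-2 read 559, 879 and 724 on the space arrays, against 2206, 1717 and 2092 on the ground arrays, a log2 difference of -1.47 ± 0.24 (adjusted p = 0.0124, limma). Its dimmer probe set stood at -0.54. The dynamin gene dyn-1, which acts in engulfment and phagosome maturation, read 236, 169 and 135 on the space arrays, against 466, 524 and 339 on the ground arrays (-1.24 ± 0.27, adjusted p = 0.0323, limma), on a probe set marked as shared. Its other probe set, with means of 10.2 for space, against 12.8 for ground, was within the range of absent sequences. The genes that act directly with ced-12, namely ced-2 (-0.33 ± 0.19) and ced-5 (-0.25 ± 0.23), did not pass. Nor did psr-1, a corpse receptor gene (0.04 ± 0.20), the bridging protein gene ttr-52 (-0.20 ± 0.21, with group means in the range of absent sequences) or the brightest partner, the calreticulin gene crt-1 (-0.59 ± 0.23, adjusted p = 0.165, limma).

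Of 23 genes of phagosome maturation, 1 rose and 1 fell. The lipid kinase gene piki-1, whose product makes the phosphoinositide mark of young phagosomes, read 545, 393 and 356 on the space arrays, against 1178, 981 and 806 on the ground arrays. Its log2 difference was -1.17 ± 0.25 (adjusted p = 0.0294, limma), and a dimmer probe set was also called, at -1.40 ± 0.30. The gene sand-1, whose product acts in the switch from RAB-5 to RAB-7 on phagosomes, read 1817, 1642 and 1534 on the space arrays, against 842, 706 and 831 on the ground arrays. It stood at 1.06 ± 0.20 (adjusted p = 0.0203, limma), and at 0.97, short of 2-fold, after quantile normalization. The GTPase gene rab-14, the brightest of the list, stood at -0.49 ± 0.25 (adjusted p = 0.274).

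Most of these 7 calls were lost when some arrays were left out. Without space condition 3, 0 of the 81 genes passed in limma, with 13 at an unadjusted p under 0.05. Over all 22548 probe sets 4493 stood at that unadjusted p in limma, and calls came to 588, against 1648 with 6 arrays. The log2 differences of the 4 risers were then 1.11 to 1.33 and those of the 3 that fell -1.49 to -1.05. Without space condition 2 only mig-2 passed. With the 5'/3' covariate gld-1 (1.10, adjusted p = 0.0546, limma) and sand-1 (1.04, adjusted p = 0.0585) were not called. cep-1 also lost its call without space condition 1 (1.46), ground control 1 (1.25) or ground control 2 (1.22). gld-1 (1.06) and sand-1 (0.99) lost theirs without space condition 1. Without ground control 1 or 2, dyn-1 (-1.19 and -1.11) and piki-1 (-1.04 and -1.17) were not called, and sand-1 (0.98) was not called without ground control 2. With space condition 1 and ground control 3 both left out, 0 of the 81 genes passed. At an unadjusted p under 0.05 in limma this fit marked 26 of them, and 5176 of all 22548 probe sets.

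**Figure D4:**
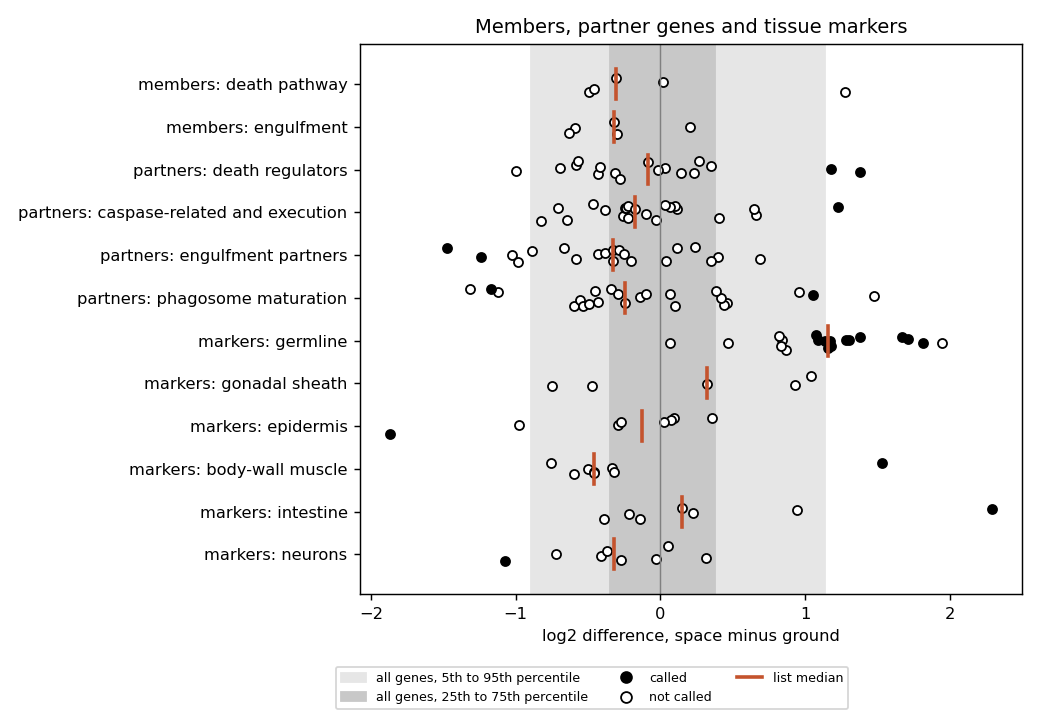
Log2 difference (space minus ground) of each gene, brightest probe set, for the members, the 4 partner lists and 6 lists of tissue markers; filled points were called, the orange line is the list median, and the grey bands span the 5th to 95th and the 25th to 75th percentile of all 17118 genes. The germline markers lie to the right of 0 as a group, while the members and most partner genes lie around or left of it.

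Some tissue markers differed between the groups too. By the same rule 5.34% of all genes rose and 2.42% fell. Of 19 germline marker genes, which include gld-1, 12 rose and 0 fell, with 0 lower at an unadjusted p under 0.05 in limma and a median of 1.16. Their summed intensity was 14895 to 17038 on the space arrays, against 7069 to 7480 on the ground arrays. Of 5 gonadal sheath genes 0 were called (limma, 1 higher and 1 lower at an unadjusted p under 0.05). Their median was 0.32, with 3 above 0 and 2 below. They summed to 2567 to 3465 on the space arrays, against 1873 to 2507 on the ground arrays. Their brightest, inx-8, read 1825, 1382 and 1407 on the space arrays, against 1044, 627 and 762 on the ground arrays. The 2 lower were fkh-6 (-0.75 ± 0.31) and ceh-18 (-0.47 ± 0.27). All 3 were named after their values were seen. Summed body-wall muscle markers were at 26687 to 30148 on the space arrays, against 39053 to 43101 on the ground arrays. Of these 8 genes 1 was called higher and 0 lower (4 lower at an unadjusted p under 0.05, limma). The called gene was myo-3 (1.53 ± 0.27, adjusted p = 0.0164, limma), named after its value was seen. It read 765, 481 and 411 on the space arrays, against 172, 198 and 155 on the ground arrays. Neuronal markers summed to 9892 to 11826 on the space arrays, against 13618 to 16874 on the ground arrays, with 1 of 8 called lower. Their median was -0.32, and 2 of the 8 stood above 0. These sums follow their brightest genes. The neuronal gene snb-1 alone read 8252 to 10228 on the space arrays, against 11116.5 to 14699 on the ground arrays. It was not called (-0.41 ± 0.22, adjusted p = 0.292, limma), nor was the brightest muscle marker, act-4 (-0.46 ± 0.19). Of 8 epidermal markers 1 fell, the collagen gene rol-6 (-1.87 ± 0.42), and of 7 intestinal markers 1 rose, the protease gene cpr-1 (2.29 ± 0.31), both named after their values were seen. The sums of these lists overlapped between the groups, at 2173 to 3152 and 13734 to 19559 on the space arrays, against 2368 to 3487 and 14744 to 22429 on the ground arrays. No marker was at 0 on any array, but some had both group means within the range of absent sequences. Among them were hlh-1, unc-119, rgef-1, mlt-10, bli-1 and dpy-7. The space values of rol-6 lay within that range too. In RNA of mixed cultures, more cells of a type and more RNA per cell cannot be told apart, and the part of these shifts in the values of ced-3, egl-1, ced-1 or the partner genes was not tested.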

How the data were processed

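The authors deposited linear intensities by probe set for 3 space condition and 3 ground control arrays. Per the labels' protocols, 10 to 100 ng of RNA was turned into biotin-labelled cRNA. The sources used here do not give how probes were summarised, and the values show a scaling to a 2%-trimmed mean of about 500.1 to 500.2 on each array. Of 22625 probe sets 77 controls were left out. Log2(intensity + 16) of the other 22548 was fitted with group as the sole factor by lmFit and eBayes (limma 3.58.1, R 4.3.3), with Benjamini-Hochberg adjustment over all. No filter on dim probe sets was used. Intervals are 95% intervals of limma. Figures were drawn with matplotlib 3.10.9.

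Symbols came from the platform annotation, updated to RefSeq WBcel235 names (20701 of 20766 probe sets with 1 symbol matched). A gene's brightest probe set over the 6 arrays stood for it. From each partner list the called genes and the brightest were named, plus cep-1, ced-2, ced-5, psr-1, ttr-52, nuc-1, ced-8, csp-1, ces-1 and ces-2. The rule also asked for genes resembling called members, of which there were 0. The members and lists were chosen with earlier results of these data known. The fit was tested on simulated data. Other settings tried were median centring, quantile normalization, a pseudocount of 1 or 64, a filter at a mean intensity of 64, an intensity trend with a robust prior, the replicate number as a block, dropping shared probe sets, counting every probe set, adjusted p alone and leaving out each array. A 5'/3' covariate (the mean of the actin and Gapdh log2 ratios) and leaving out space condition 1 with ground control 3 were chosen after seeing the data.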

Additional observations from a re-analysis of the deposited data

How the results depend on the processing

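The count of member genes called was 0 in 12 of 18 alternatives and 1, ced-3 each time, in 6: median centring, a pseudocount of 64, the filter on dim probe sets, the intensity trend with a robust prior, the replicate block and the 5'/3' covariate. Replicate numbers are shared between the groups, and deviations of same-numbered arrays from their group means correlated at 0.389, 0.058 and 0.171. Arrays of unlike number were not compared, so these values do not settle whether the numbers pair the arrays. The main fit did not pair them. With the replicate block ced-3 stood at 1.27 ± 0.22 (SE, adjusted p = 0.0334, limma), against an SE of 0.35 without it. With the block 1741 probe sets were called, against 1648 without it. At an unadjusted p under 0.05 in limma it marked 6646 probe sets, against 5553 without it. With any single array left out 0 members were called (limma, 2 to 4 at an unadjusted p under 0.05), and ced-3 stood at 0.90 to 1.52. Over all 22548 probe sets the 1648 calls came to 1027 with a pseudocount of 1 and 1097 with the 5'/3' covariate. With 1 array left out they came to 588 to 1201. They came to 0 (limma, 5176 at an unadjusted p under 0.05) without space condition 1 and ground control 3 together. Dropping the 6711 shared probe sets left fewer to test, and 905 of the rest were called, so that count is not on the same base as 1648. The 7 partner genes came to 4 with a pseudocount of 1, 0 to 8 with 1 array left out and 0 without space condition 1 and ground control 3. They stayed 7 in number with the 5'/3' covariate, without gld-1 and sand-1. Of the called probe sets 70.5% were higher on the space arrays on the deposited scaling, 58.8% after quantile normalization and 63.4% after median centring. The sign of ced-4 turned under quantile normalization (-0.16), median centring (-0.027), the 5'/3' covariate (-0.19) and without space condition 1 and ground control 3 (-0.021), and spanned -0.15 to 0.21 with 1 array left out. That of the dim ced-3 probe set spanned -0.030 to 0.24. The causes were not tested.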
